A study of Homo sapiens with 12 samples.

Results

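Kinesins are motor proteins that use ATP to walk along or take apart microtubules. They were taken as all genes whose symbol in the array annotation starts with KIF and a digit, or is KIFC1, KIFC2 or KIFC3. That rule named 41 genes with 57 probes, of 47323 probes on the array. A detection filter kept 26 of the 41 genes, of 11423 genes tested in all. The rule sets 11 mitotic kinesins, which build the spindle and divide the cell (KIF2C, KIF4A, KIF11, KIF14, KIF15, KIF18A, KIF20A, KIF20B, KIF22, KIF23 and KIFC1), against the other 30, most of which carry cargo or serve the cilium. All 11 mitotic kinesins passed the filter and were detected in all 12 arrays, while 15 of the 30 others passed. The rule uses symbols and known roles and no measured value, although it was written with earlier results of these data known.

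Mitotic kinesins are made in dividing cells, with RNA that builds up towards mitosis, so their summed level in a culture depends in part on how many cells divide. In glioblastoma, a fast-dividing brain tumour, several of them have been studied as drug targets, KIF11 most of all. Cargo kinesins of the kinesin-1, kinesin-2 and kinesin-3 families carry organelles and vesicles in resting and dividing cells alike. In RNA from whole cultures, fewer cells of a type and less RNA per cell cannot be told apart.

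The cells were DBTRG and U87, established human glioblastoma lines, and the RNA was read on single-colour Illumina bead arrays. Y15 blocks focal adhesion kinase, through which cells signal from their contacts with the matrix, and temozolomide (TMZ) alkylates DNA and is the standard drug for this tumour. There were 6 groups of 2 arrays: DBTRG with 10 µM Y15, untreated DBTRG, U87 with TMZ and 10 µM Y15 together, U87 with 10 µM Y15, U87 with TMZ, and untreated U87. Treatment lasted 24 h. The sample titles give 20 µM TMZ and the design text 100 µM, so the dose is uncertain. The labels speak of untreated cells and name no vehicle. Each line stands for 1 tumour, and nothing in the labels says whether the 2 arrays of a group came from separate cultures, so the spread that p-values rest on may be technical.

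Between 14437 and 16889 probes were detected per array, fewest in an array of U87 with Y15. Of 11 glial or glioma markers, CD44, EGFR, NES, TNC and VIM were detected in all 12 arrays, and GFAP, PDGFRA and S100B in none. Of the markers of other cell types on the array, no array detected 2 of 6 myeloid (PTPRC, ITGAM), 2 of 3 lymphocyte (CD3E, MS4A1), 3 of 4 endothelial (CDH5, KDR, VWF), 1 of 4 epithelial (CDH1) and 2 of 4 neuronal markers (RBFOX3, SYP). CD68, MAP2 and SNAP25 were detected in all 12 arrays, CD14 in 9, CSF1R in 8, AIF1 in 7, PECAM1 in 5, EPCAM and KRT18 in 4 each, KRT8 in 3 and CD3D in 1. With Y15 in DBTRG, where 19.4% of all genes were called higher and 18.4% lower, 2 of 4 measured myeloid and 2 of 3 measured epithelial markers rose, 1 of 2 neuronal markers fell, and 1 of 8 glial markers rose and 3 fell. Their summed normalized intensity was 454 to 489 with Y15, against 239 to 244 untreated, for the myeloid list, 429 to 467, against 276 to 285, for the epithelial list, 187 to 203, against 292 to 306, for the neuronal list and 20602 to 22147, against 26942 to 28755, for the glial list. With Y15 in U87, where 8.61% of all genes were called higher and 13.4% lower, 1 of 4 myeloid markers rose and 1 fell (sum 4098 to 4397, against 4297 to 4731 untreated), 1 of 2 neuronal markers fell (618 to 627, against 802 to 817), and 2 of 8 glial markers rose and 2 fell (24285 to 25015, against 25242 to 27962). The part of these markers in the kinesin results was not tested. Values below are log2 intensities after background correction and quantile normalization. A gene is called where its limma p, adjusted by Benjamini-Hochberg over the 11423 genes, is under 0.05, and errors are SE from the fit. Levels are compared between samples for 1 probe and never between genes.

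All 11 mitotic kinesins fell in DBTRG cells given Y15. Their changes ran between -1.71 and -0.35 log2 with a median of -1.35, a 2.54-fold lower level, while the median of all genes tested was 0.01. In the same comparison 37.8% of all genes were called either way and 18.4% of all genes were called lower, so 11 of 11 lower calls stood against a background of 18.4%. In all 11 genes both Y15 arrays lay below both untreated arrays, a pattern seen in 31.6% of all genes. The mean log2 level over the 11 genes was 7.83 and 7.86 in the Y15 arrays, against 8.99 and 9.10 in the untreated arrays.

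KIF14 and KIF4A, which act in cytokinesis, had the largest changes. KIF14, which brings citron kinase to the midbody, had 7.84 and 7.92 log2 in DBTRG with Y15, against 9.48 and 9.69 in untreated DBTRG. That is a change of -1.71 ± 0.13, 3.26-fold lower (limma adjusted p = 6.47e-06). KIF4A, a chromokinesin that works with PRC1 on the central spindle, had 7.52 and 7.45 log2 with Y15, against 9.08 and 9.15 untreated. Its change was -1.64 ± 0.13, 3.11-fold lower (limma adjusted p = 1.12e-05). KIF23, the motor of the centralspindlin complex, had 7.88 and 7.60 log2 with Y15, against 9.19 and 9.21 untreated. Its change was -1.46 ± 0.12 (limma adjusted p = 1.23e-05). The Y15 arrays of these genes lay more than 1 log2 unit below the untreated arrays. KIF20A, which carries the chromosomal passenger complex to the midzone, had 8.65 and 8.43 log2 with Y15, against 9.87 and 9.89 untreated, a change of -1.34 ± 0.13. KIF20B, a motor of late cytokinesis, had 8.26 and 8.27 log2 with Y15, against 9.16 and 9.56 untreated, a change of -1.09 ± 0.14. Both were called, with limma adjusted p of 3.04e-05 for KIF20A and 0.000178 for KIF20B.

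The motors that set up the 2 spindle poles fell as well. KIF11, the kinesin-5 that slides the poles apart, had 8.28 and 8.49 log2 in DBTRG with Y15, against 9.86 and 9.94 in untreated DBTRG. Its change was -1.51 ± 0.12, 2.86-fold lower (limma adjusted p = 1.17e-05). KIF15, a kinesin-12 that can take over part of that work, had 6.74 and 6.49 log2 with Y15, against 7.85 and 8.10 untreated, a change of -1.36 ± 0.15. KIFC1, a minus-end motor that focuses poles and gathers extra centrosomes, had 7.88 and 8.41 log2 with Y15, against 9.47 and 9.51 untreated, a change of -1.35 ± 0.17. The 2 Y15 arrays of KIFC1 stood further apart than those of KIF11 or KIF15, yet both lay more than 1 unit below the untreated arrays.

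Other motors that act on chromosomes had the smallest changes. KIF2C, which takes microtubules apart at faulty attachments to chromosomes, had 7.55 and 7.91 log2 in DBTRG with Y15, against 8.38 and 8.68 in untreated DBTRG, a change of -0.80 ± 0.15 (limma adjusted p = 0.00178). KIF18A, a kinesin-8 that damps chromosome movement, had 6.43 and 6.60 log2 with Y15, against 7.16 and 7.06 untreated, a change of -0.59 ± 0.19 (limma adjusted p = 0.0275). KIF22, a chromokinesin that pushes chromosome arms away from the poles, had 9.09 and 8.91 log2 with Y15, against 9.35 and 9.34 untreated, a change of -0.35 ± 0.12 (limma adjusted p = 0.0436). Their Y15 arrays lay below the untreated arrays, by the least for KIF22. The calls of KIF18A and KIF22 were unsteady, kept in 9 and 5 of 14 alternatives. Both were lost with array weights and with centring on the median of all probes, and that of KIF22 also with centring on kept probes, with no filter, with only the arrays compared and with the replicate block. Without the first untreated array the adjusted p was 0.111 for KIF18A and 0.123 for KIF22, and without the second it was 0.0672 and 0.115. Without the first Y15 array KIF18A had 0.126, and without the second KIF22 had 0.178. The other 9 mitotic kinesins kept their calls in all 14 alternatives run on this comparison.

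**Figure D1:**
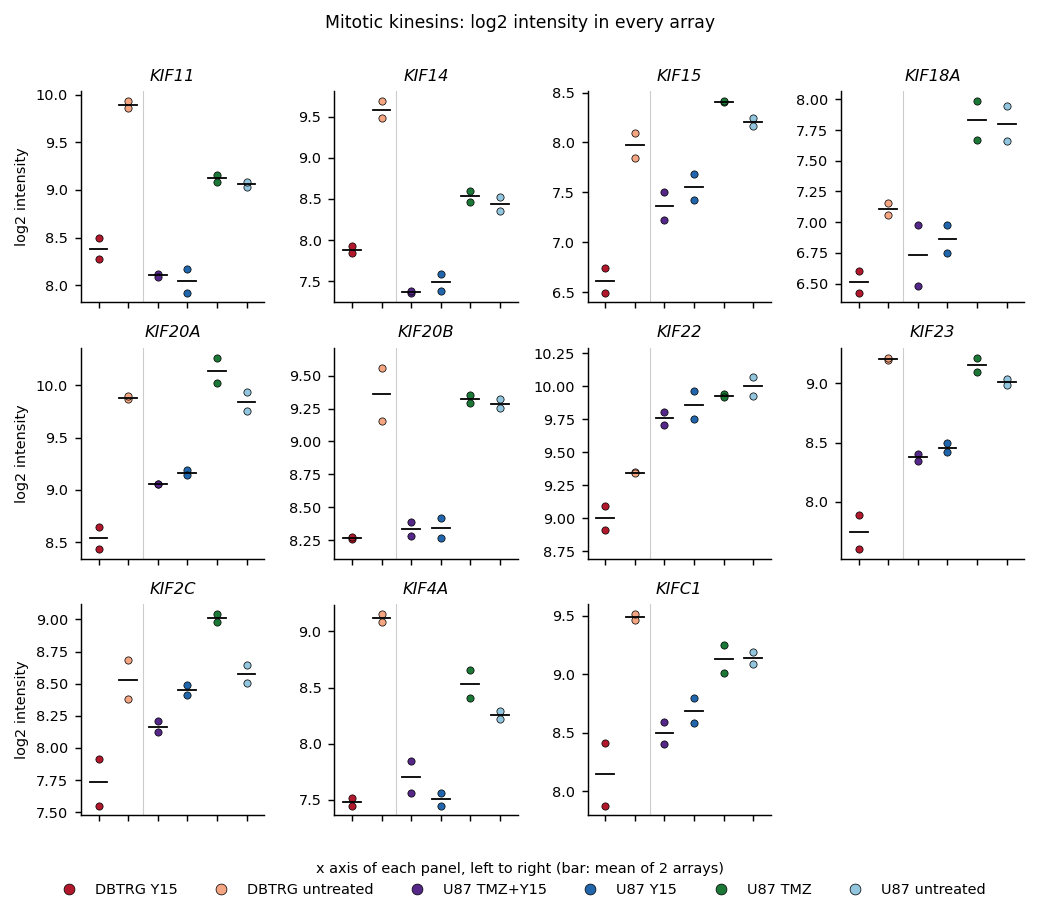
Log2 intensity of the 11 mitotic kinesins in each of the 12 arrays (y axis, log2 intensity, own scale per gene; groups run left to right as in the legend; bars are means of 2 arrays). In DBTRG the Y15 points of all 11 genes lie below the untreated points, and in U87 the points with Y15, alone or with TMZ, lie below those without it for most genes, KIF22 and KIF2C least clearly.

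The promoters of these genes share sequence features that the choice of members did not use. The CHR (cell cycle genes homology region, TTTGAA or TTCGAA) and the CCAAT box are known, from work on late cell cycle genes, as elements through which the DREAM complex, B-MYB with FOXM1, and NF-Y act. RefSeq promoter windows on GRCh38.p14 were matched for 33 of the 41 kinesins. Each runs from 250 bases before to 50 after the start it is built on. Among matched kinesins that passed the filter, that start lay inside the gene's RefSeq span in KIF5C, KIF7, KIF24 and KIFC1. In the rest it lay at the edge of the gene. On either strand, a CHR was found in 9 of 11 mitotic kinesins (81.8%), in 2 of 12 matched others that passed the filter (16.7%) and in 16.6% of 27305 promoters. CCAAT was found in 9 of 11 mitotic kinesins (81.8%), 4 of 12 others (33.3%) and 35.7% of all promoters. Both were found in 8 of 11 mitotic kinesins (72.7%), 2 of 12 others (16.7%) and 6.58% of all promoters. The E2F-like words TTCCCGC or TTGGCGC or TTCGCGC were found in 2 of 11 mitotic kinesins (18.2%), 2 of 12 others (16.7%) and 11.2% of all promoters. TTGGCGC can overlap a CCAAT box, and also its own reverse complement. A match is a description of letters and not a site shown to be used.

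The 4 kinesins with the strongest fall in DBTRG are shown with KIF2C, whose window had none of the 3 motifs, and KIF5B, a cargo motor with both that was not called in either line with Y15. Each run is 170 bases, read 5′ to 3′ on the gene's strand, from 150 bases before the start to 20 after it, with CHR and CCAAT matches of either strand in capitals.
KIF14 (chr1:200620732-200620901, minus strand): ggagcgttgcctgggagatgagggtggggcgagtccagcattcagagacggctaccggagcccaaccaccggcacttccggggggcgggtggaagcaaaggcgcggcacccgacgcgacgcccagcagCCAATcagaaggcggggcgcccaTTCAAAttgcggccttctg
KIF4A (chrX:70289954-70290123, plus strand): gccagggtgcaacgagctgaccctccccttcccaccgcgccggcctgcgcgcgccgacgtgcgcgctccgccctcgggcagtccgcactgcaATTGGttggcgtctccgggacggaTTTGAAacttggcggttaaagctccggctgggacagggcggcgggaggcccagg
KIF11 (chr10:92592980-92593149, plus strand): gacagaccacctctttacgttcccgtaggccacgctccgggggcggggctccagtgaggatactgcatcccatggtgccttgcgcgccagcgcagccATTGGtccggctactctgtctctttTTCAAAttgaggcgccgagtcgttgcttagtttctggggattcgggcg
KIF23 (chr15:69414199-69414368, plus strand): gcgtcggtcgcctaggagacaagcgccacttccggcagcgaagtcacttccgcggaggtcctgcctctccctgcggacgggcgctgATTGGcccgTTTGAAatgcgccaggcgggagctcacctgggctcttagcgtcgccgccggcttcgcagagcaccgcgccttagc
KIF2C (chr1:44739687-44739856, plus strand): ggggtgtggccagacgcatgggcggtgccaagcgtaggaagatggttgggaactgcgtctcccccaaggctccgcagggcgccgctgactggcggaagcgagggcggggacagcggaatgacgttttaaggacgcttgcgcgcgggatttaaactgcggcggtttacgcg
KIF5B (chr10:32056406-32056575, minus strand): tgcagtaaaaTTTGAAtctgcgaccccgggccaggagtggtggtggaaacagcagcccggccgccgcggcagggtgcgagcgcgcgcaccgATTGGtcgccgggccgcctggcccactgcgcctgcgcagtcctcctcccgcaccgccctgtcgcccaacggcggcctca

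The CCAAT match lies before the CHR in the windows of KIF14, KIF4A, KIF11 and KIF23. Its first base is at -22 and that of the CHR at 2 in KIF14, at -58 and -34 in KIF4A, at -53 and -28 in KIF11 and at -64 and -55 in KIF23, counted from the gene start. In KIF5B the order is the other way round, with the CHR at -140 and CCAAT at -59. KIF2C, with no match, changed by -0.80 in DBTRG, and KIF20A, with CCAAT matches and no CHR, changed by -1.34. A further kinesin outside the mitotic set, KIF24, had both motifs, with a CHR at 2 and CCAAT at -154, -100 and -47, counted from a start inside the gene.

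**Figure D2:**
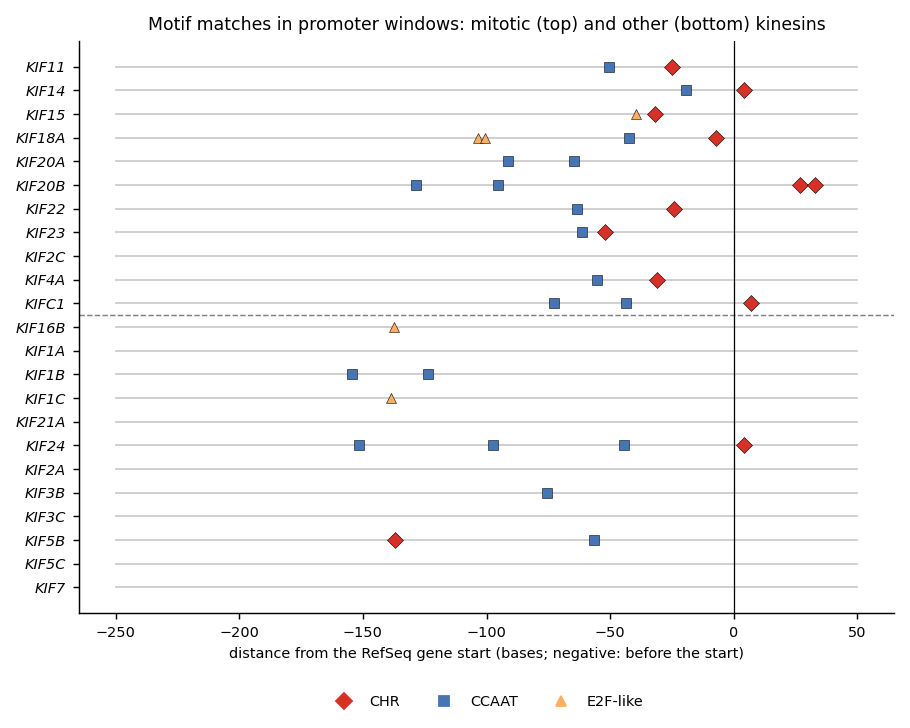
Position of CHR, CCAAT and E2F-like matches (symbols) in the promoter windows of the 11 mitotic and 12 other matched kinesins (rows). The x axis is the distance in bases from the start each RefSeq window is built on, which lies inside the gene for KIF5C, KIF7, KIF24 and KIFC1. CHR matches stand in 9 of 11 mitotic rows and in 2 of 12 other rows.

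In U87 cells given Y15, 8 of 11 mitotic kinesins fell. The median change was -0.68 log2, a 1.60-fold lower level, against -0.07 for all genes tested. Of all genes 22.0% were called, 13.4% lower. Both Y15 arrays lay below both untreated arrays in 10 of 11 genes, the exception being KIF22, and in 40.8% of all genes. The mean log2 level over the 11 genes was 8.16 and 8.28 with Y15, against 8.85 and 8.90 in untreated U87.

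KIF11, KIF14 and KIF20B had the largest changes in U87. KIF11 had 7.92 and 8.17 log2 in U87 with Y15, against 9.04 and 9.08 in untreated U87, a change of -1.01 ± 0.12, 2.02-fold lower (limma adjusted p = 0.000367). KIF14 had 7.38 and 7.59 log2 with Y15, against 8.52 and 8.36 untreated, a change of -0.95 ± 0.13 (limma adjusted p = 0.000616). KIF20B had 8.27 and 8.42 log2 with Y15, against 9.25 and 9.32 untreated, a change of -0.95 ± 0.14 (limma adjusted p = 0.00108). Each of these Y15 pairs lay well under its untreated pair. KIF18A had 6.97 and 6.75 log2 with Y15, against 7.66 and 7.95 untreated, a change of -0.94 ± 0.19 (limma adjusted p = 0.00562). KIF4A had 7.45 and 7.56 log2 with Y15, against 8.22 and 8.29 untreated, a change of -0.75 ± 0.13 (limma adjusted p = 0.00305). In both genes the groups were clearly apart.

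The remaining mitotic kinesins changed by less in U87. KIF20A had 9.19 and 9.14 log2 in U87 with Y15, against 9.75 and 9.94 in untreated U87, a change of -0.68 ± 0.13 (limma adjusted p = 0.00426). KIF15 had 7.42 and 7.69 log2 with Y15, against 8.25 and 8.16 untreated, a change of -0.65 ± 0.15 (limma adjusted p = 0.0129). KIF23 had 8.42 and 8.50 log2 with Y15, against 9.04 and 8.99 untreated, a change of -0.56 ± 0.12 (limma adjusted p = 0.00892). All 3 were called. KIFC1 had 8.58 and 8.80 log2 with Y15, against 9.09 and 9.19 untreated, a difference of -0.45 ± 0.17 that missed the threshold (limma adjusted p = 0.0913). KIF22 had 9.75 and 9.97 log2 with Y15, against 10.07 and 9.93 untreated, a difference of -0.14 ± 0.12 (limma adjusted p = 0.449). KIF2C had 8.41 and 8.49 log2 with Y15, against 8.51 and 8.65 untreated, a difference of -0.13 ± 0.15 (limma adjusted p = 0.582). The arrays of KIF22 overlapped between the groups, and those of KIF2C were only just apart.

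The calls of KIF15, KIF18A and KIF23 depended on single arrays. With the mean of its kept probes in place of the brightest, KIF23 changed by -0.28 and was not called (limma adjusted p = 0.0907). KIF15 had an adjusted p of 0.0979 without the first Y15 array, 0.0800 without the first untreated array and 0.0561 without the second. KIF23 had 0.0626 without the first Y15 array and 0.0595 without the first untreated array, and KIF18A had 0.0582 without the second untreated array. A scaling that centres each array on the median of all its probes moved the median of all genes to -0.60 in U87 with Y15. Under it all 11 mitotic kinesins were called lower, with a median of -1.35. So were 12 of the 15 other kinesins and 6989 of all 11423 genes.

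**Figure D3:**
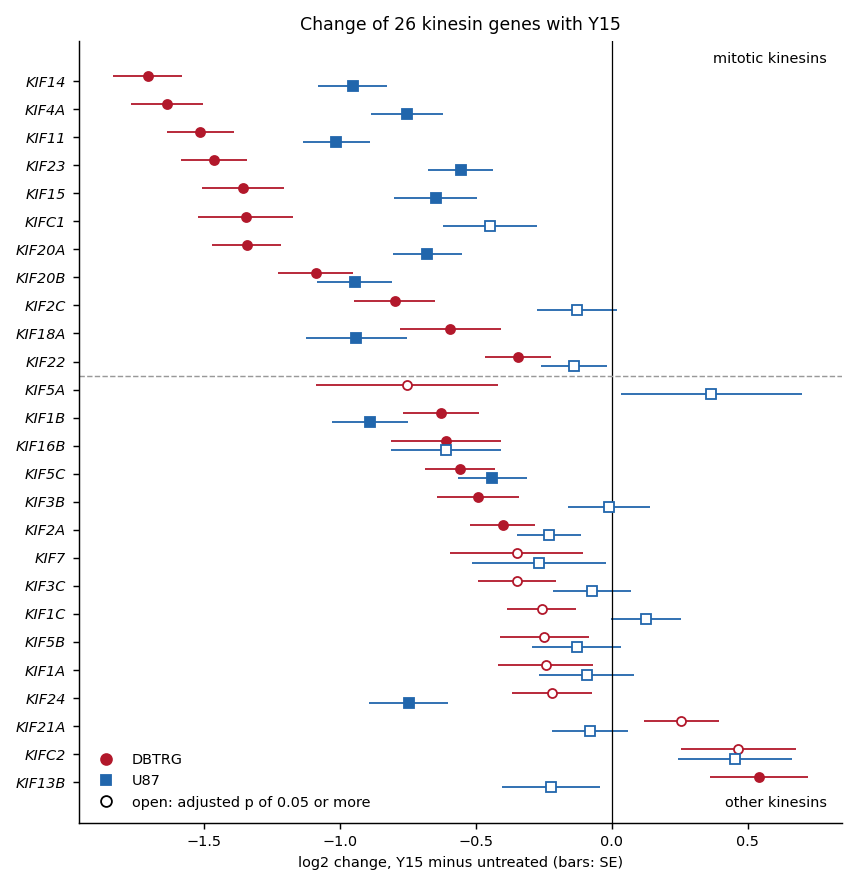
Log2 change with Y15 (x axis, Y15 minus untreated, bars are SE) of the 26 kinesins that passed the filter (rows), in DBTRG (circles) and U87 (squares), with filled symbols for called genes. The mitotic kinesins above the dashed line lie left of 0 in both lines, down to -1.71 in DBTRG and -1.01 in U87, while most of the others lie nearer to 0.

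Under quantile normalization 7 of 11 mitotic kinesins fell further with Y15 in DBTRG than in U87, a direction that turned for 4 of those 7 under another scaling described below. The difference was tested as a contrast of the 2 changes, in which 7.61% of all genes were called lower and 20.0% in either direction. The called genes were KIF23 with -0.91 ± 0.17, KIFC1 with -0.90 ± 0.25, KIF4A with -0.88 ± 0.19, KIF14 with -0.75 ± 0.18, KIF15 with -0.71 ± 0.21, KIF2C with -0.67 ± 0.21 and KIF20A with -0.66 ± 0.18, with limma adjusted p between 0.00492 for KIF23 and 0.0457 for KIF2C. KIF11 missed the threshold with -0.50 ± 0.17 (limma adjusted p = 0.0692), while its second probe, also detected in all 12 arrays, had -1.02 (limma adjusted p = 0.00456 over probes). The second probe of KIF23, dimmer and detected in 11 arrays, had -0.54 and was not called (limma adjusted p = 0.174 over probes). KIF18A had a difference of 0.35 ± 0.26 the other way (limma adjusted p = 0.383). None of the 15 other kinesins was called by limma, and 4 of them had an unadjusted p under 0.05, as did 3910 of the 11423 genes.

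The size and direction of that line difference depended on how the arrays were scaled. Centring each array on the median of all its probes moved the median of all genes in the contrast to 0.70, against 0.07 under quantile normalization. The median of the 11 mitotic kinesins was then 0.17, against -0.67, so it was positive and still below that of all genes. Under that scaling 2 mitotic kinesins were called, both higher, in place of 7 lower, and of the 15 others 6 were called higher in place of none. Of all 11423 genes 5879 were then called higher and 303 lower. Leaving out 1 array gave between 2 and 6 calls, lowest with 2 without the second U87 Y15 array, and 3 without the second untreated DBTRG array or either untreated U87 array. Fitted to the arrays compared alone, 4 were called. KIF23 and KIF4A were called in 17 of 18 alternatives, all but that centring. Across the 11 genes the changes in the lines, which share no arrays, had a Pearson correlation of 0.50 and a Spearman correlation of 0.50, and across all 11423 genes, which are not independent, 0.43 and 0.38. Under quantile normalization the change was lower in DBTRG for 10 of the 11, and for 44.4% of all genes, but with centring on all probes for 3 of the 11 (KIF23, KIF4A and KIFC1).

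Y15 together with TMZ lowered 9 of 11 mitotic kinesins in U87. The median change against untreated U87 was -0.79 log2, a 1.73-fold lower level, and -0.06 for all genes tested. Of all genes 23.1% were called, 13.2% lower and 9.95% higher, and the treated arrays of all 11 mitotic kinesins lay below the untreated arrays, as in 38.6% of all genes. The mean log2 level over the 11 genes was 8.18 and 8.09 with both drugs, against 8.85 and 8.90 in untreated U87. KIF14 had 7.36 and 7.38 log2 with both drugs, against 8.52 and 8.36 untreated, a change of -1.07 ± 0.13, 2.10-fold lower (limma adjusted p = 0.000374). KIF18A had 6.98 and 6.48 log2 with both drugs, against 7.66 and 7.95 untreated, a change of -1.07 ± 0.19 (limma adjusted p = 0.00284). The 2 combination arrays of KIF18A stood clearly apart, those of KIF14 hardly at all. KIF11 had 8.12 and 8.09 log2 with both drugs, against 9.04 and 9.08 untreated, a change of -0.96 ± 0.12 (limma adjusted p = 0.000578).

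The other 6 called mitotic kinesins changed by less than KIF11. KIF20B had 8.28 and 8.39 log2 with both drugs (change -0.95 ± 0.14) and KIF15 had 7.51 and 7.22 (change -0.84 ± 0.15). KIF20A had 9.06 and 9.05 log2 (change -0.79 ± 0.13) and KIF23 had 8.40 and 8.35 (change -0.64 ± 0.12). KIFC1 had 8.40 and 8.59 log2 (change -0.64 ± 0.17) and KIF4A had 7.84 and 7.56 (change -0.55 ± 0.13). All of these combination arrays lay below the untreated arrays already given. KIF2C had -0.41 ± 0.15 (limma adjusted p = 0.0689) and KIF22 had -0.24 ± 0.12 (limma adjusted p = 0.176), and neither was called. KIFC1 lost its call without any 1 of the 4 arrays compared. KIF4A lost it without either untreated array or without the second combination array.

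Set against TMZ alone, the combination lowered 10 of 11 mitotic kinesins, all but KIF22, with a median of -0.99 log2 (1.98-fold lower) beside -0.05 for all genes. Of all genes 25.3% were called in that comparison, 14.5% lower. The changes ran down to -1.16 ± 0.13 for KIF14 and -1.10 ± 0.19 for KIF18A. KIF2C, which was not called against untreated cells, had 8.21 and 8.12 log2 with both drugs, against 8.98 and 9.04 with TMZ alone, a change of -0.85 ± 0.15 (limma adjusted p = 0.00278). KIF20A had 9.06 and 9.05 log2 with both drugs, against 10.27 and 10.02 with TMZ alone, a change of -1.08 ± 0.13 (limma adjusted p = 0.000306). KIFC1 lost its call without any 1 of the 4 arrays compared. The comparisons of the combination with untreated U87, with TMZ and with Y15 share the combination arrays, so their counts are no independent evidence of each other.

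Set against Y15 alone, the combination changed none of the 11 mitotic and none of the 15 other kinesins by limma, and 0.306% of all genes were called, 0.0875% higher and 0.219% lower. An unadjusted p under 0.05 was seen in 0 mitotic and 3 other kinesins, and in 1289 of all 11423 genes. The mitotic median was -0.11 log2. KIF2C had the largest difference of the 11, -0.28 ± 0.15, with 8.21 and 8.12 log2 with both drugs, against 8.41 and 8.49 with Y15 alone (limma adjusted p = 0.511). Centring on the median of all probes moved the median of all genes to 0.43 here, and 3 mitotic and 7 other kinesins were then called higher, with KIF2C at 0.21. Of all 11423 genes 3640 were called higher and 75 lower under that centring.

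TMZ alone changed no kinesin past the threshold. By limma 0 of 11 mitotic and 0 of 15 other kinesins were called, and 0 of either class in each alternative run. An unadjusted p under 0.05 was seen in 2 mitotic and 1 other kinesin, and in 465 of all genes. In all, 1 gene of the 11423, 0.00875%, was called. The mitotic median was 0.09 log2, with 9 of 11 values above 0. In 6 of 11 both TMZ arrays lay above both untreated arrays, as in 18.0% of all genes. KIF2C had 8.98 and 9.04 log2 with TMZ, against 8.51 and 8.65 in untreated U87, a difference of 0.43 ± 0.15 (limma adjusted p = 0.9998). KIF20A had 10.27 and 10.02 log2 with TMZ, against 9.75 and 9.94 untreated, a difference of 0.30 ± 0.13 (limma adjusted p = 0.9998). KIF4A had 8.41 and 8.66 log2 with TMZ, against 8.22 and 8.29 untreated, and KIF15 had 8.40 and 8.42, against 8.25 and 8.16. In these genes the TMZ arrays lay above the untreated arrays, by 0.27 ± 0.13 for KIF4A and 0.20 ± 0.15 for KIF15, with no call. KIF11 had 9.16 and 9.08 log2 with TMZ, against 9.04 and 9.08 untreated, and KIF14 had 8.47 and 8.60, against 8.52 and 8.36. KIF18A had 7.99 and 7.67 log2 with TMZ, against 7.66 and 7.95 untreated, and KIFC1 had 9.01 and 9.25, against 9.09 and 9.19. The TMZ arrays of KIF14, KIF18A and KIFC1 overlapped the untreated ones. The mean log2 level over the 11 mitotic kinesins was 9.01 in both TMZ arrays, against 8.85 and 8.90 in untreated U87. Whether Y15 acted differently with TMZ present was tested as a further contrast. By limma 0 of 11 mitotic and 0 of 15 other kinesins were called, and 0 of all genes. An unadjusted p under 0.05 was seen in 2 mitotic and 1 other kinesin, and in 950 of the 11423 genes. KIF2C had the largest difference among the mitotic kinesins, -0.72 ± 0.21 (limma adjusted p = 0.361), followed by KIF20A with -0.41 ± 0.18 (limma adjusted p = 0.595).

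**Figure D4:**
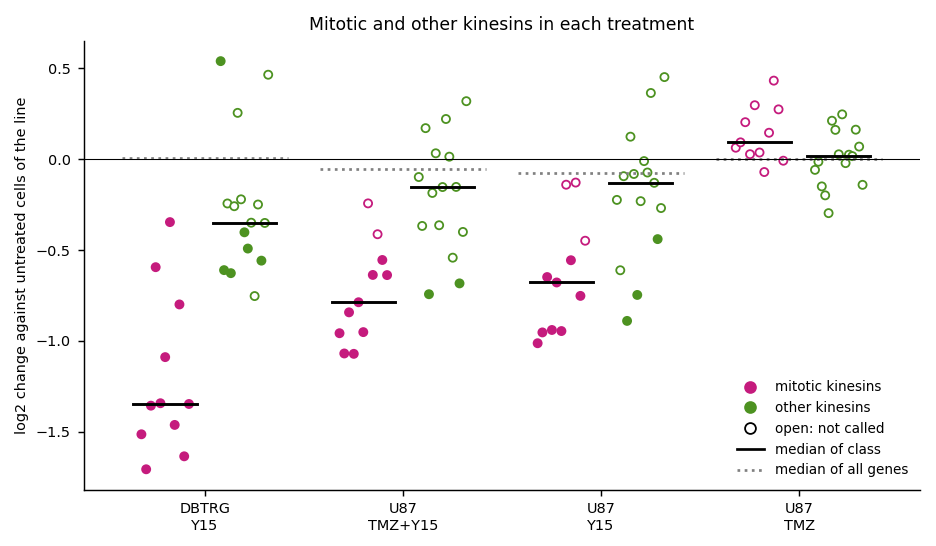
Log2 change against untreated cells of the same line (y axis) for each mitotic and each other kinesin (points, filled where called) in the 4 treatments (x axis), with class medians as bars and the median of all genes dotted. The mitotic median lies at -1.35 in DBTRG with Y15, -0.79 in U87 with both drugs, -0.68 with Y15 and 0.09 with TMZ, below that of the other kinesins in all but TMZ.

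Among the 15 other kinesins that passed the filter, 5 fell and 1 rose in DBTRG with Y15, beside 18.4% lower and 19.4% higher among all genes, and their median was -0.35 log2. KIF1B, a kinesin-3 that carries mitochondria and synaptic vesicle precursors, had 8.38 and 8.76 log2 in DBTRG with Y15, against 9.14 and 9.25 in untreated DBTRG, a change of -0.63 ± 0.14 (limma adjusted p = 0.00519). KIF5C, a kinesin-1 heavy chain abundant in neurons, had 8.27 and 8.22 log2 with Y15, against 8.64 and 8.96 untreated, a change of -0.56 ± 0.13 (limma adjusted p = 0.00616). KIF3B, a kinesin-2 motor of the cilium, had 8.96 and 8.94 log2 with Y15, against 9.62 and 9.27 untreated, a change of -0.49 ± 0.15 (limma adjusted p = 0.0255). The 2 untreated arrays of KIF5C and KIF3B stood further apart than their Y15 arrays. KIF2A, a kinesin-13 that takes microtubules apart, had 8.45 and 8.50 log2 with Y15, against 8.92 and 8.83 untreated, a change of -0.40 ± 0.12 (limma adjusted p = 0.0213). KIF13B, a kinesin-3 that carries membrane-associated guanylate kinases, was the 1 that rose, with 8.10 and 8.29 log2 with Y15, against 7.50 and 7.81 untreated, a change of 0.54 ± 0.18 (limma adjusted p = 0.0363). KIF16B, an early endosome motor, had 4.69 and 4.83 log2 with Y15, against 5.46 and 5.28 untreated (limma adjusted p = 0.0359). It was not detected in any DBTRG array, so no fold is given, and leaving it out made the count 4 lower and 1 higher.

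This count of 6 calls among the other kinesins in DBTRG was unsteady. It was 2 when only the DBTRG arrays were fitted, 2 with array weights, and 2 with each array centred on the median of all its probes, 1 higher and 1 lower. Without the first untreated array it was 2, and without the first Y15 array 3. KIF1B kept its call in 12 of 14 alternatives, KIF5C in 11, KIF2A in 9, KIF13B and KIF3B in 8 each, and KIF16B in 3 of 13. Without the first untreated array KIF3B had an adjusted p of 0.184. The second probe of KIF16B, detected in 4 arrays, had 0.36 in DBTRG, the opposite direction. That of KIF3B, detected in all 12 arrays, had -0.31 in DBTRG and was not called (limma adjusted p = 0.135 over probes). The second detected probe of KIF1B, also seen in all 12 arrays, had -0.49 in DBTRG (adjusted p = 0.0529 over probes) and -0.01 in U87, so the probes of that gene disagreed in U87.

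In U87 with Y15, 3 of the 15 other kinesins fell and none rose by limma, beside 13.4% lower and 8.61% higher among all genes. In either direction, 4 of the 15 had an unadjusted p under 0.05, as did 3980 of the 11423 genes. KIF1B had 8.05 and 8.24 log2 in U87 with Y15, against 9.01 and 9.06 in untreated U87, a change of -0.89 ± 0.14 (limma adjusted p = 0.00162). KIF24, a centriole kinesin that holds back cilium growth, had 5.69 and 5.79 log2 with Y15, against 6.54 and 6.43 untreated, a change of -0.75 ± 0.15 (limma adjusted p = 0.00536). KIF5C had 8.90 in both Y15 arrays, against 9.29 and 9.40 log2 untreated, a change of -0.44 ± 0.13 (limma adjusted p = 0.0332). These 3 Y15 pairs lay below their untreated pairs, but KIF5C lost its call without any 1 of the 4 arrays compared. KIF16B was detected in no U87 array with Y15 alone and was not called (limma adjusted p = 0.0540). It passed the filter only through 2 untreated, 2 TMZ and 1 combination array of U87, where it was higher. Its lower value with Y15 is therefore a description, and no fold is given. The other kinesin-1 heavy chain detected in all arrays, KIF5B, had -0.13 ± 0.16 in U87 and -0.25 ± 0.16 in DBTRG (limma adjusted p = 0.616 and 0.263).

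With both drugs 2 of the 15 other kinesins fell and none rose against untreated U87, beside 13.2% lower and 9.95% higher among all genes. They were KIF1B with -0.74 ± 0.14 (limma adjusted p = 0.00434) and KIF5C with -0.68 ± 0.13 (limma adjusted p = 0.00432). KIF1B had 8.23 and 8.35 log2 with both drugs, and KIF5C had 8.74 and 8.58. The dimmer probes of KIF1B had -0.26 and -0.35 against untreated U87 and were not called (limma adjusted p = 0.348 and 0.149 over probes). They were not called against TMZ alone either (-0.28 and -0.26). Against TMZ alone 3 fell, beside 14.5% of all genes lower. They were KIF5C with -0.85 ± 0.13, KIF1B with -0.54 ± 0.14 and KIF24 with -0.53 ± 0.15. KIF1B and KIF24 lost that call without any 1 of the 4 arrays compared, and the count was 1 or 2 in those fits.

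**Figure D5:**
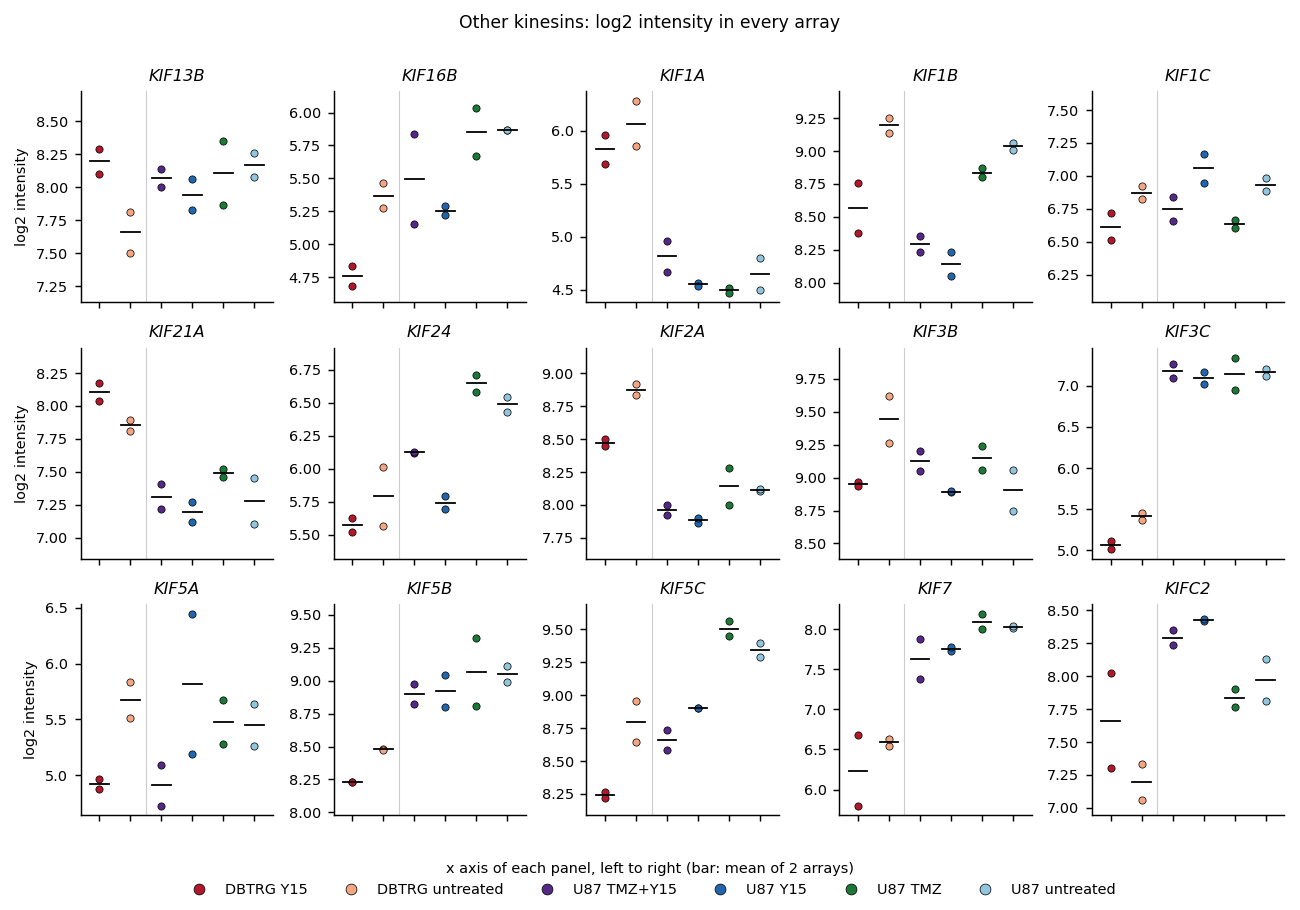
Log2 intensity of the 15 other kinesins that passed the filter in each of the 12 arrays (y axis, log2 intensity, own scale per gene; groups run left to right as in the legend; bars are means of 2 arrays). KIF1B and KIF5C are lower with Y15 in both lines, and KIF3C and KIF7 differ between the lines more than between treatments.

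Before treatment, 45.5% of the mitotic and 73.3% of the other kinesins were called between the lines, on either side of the share of all genes. Of the 15 other kinesins 4 were higher and 7 lower in untreated DBTRG than in untreated U87, and of the 11 mitotic 3 were higher and 2 lower, while 59.3% of all genes were called, 26.8% higher and 32.5% lower. KIF3C, a kinesin-2 motor known from neurons, had 5.36 and 5.46 log2 in untreated DBTRG, where 1 of 2 arrays detected it, against 7.21 and 7.13 in untreated U87, a difference of -1.76 ± 0.14. KIF7, which works in Hedgehog signalling at the tip of the cilium, had 6.54 and 6.64 log2 in DBTRG, against 8.01 and 8.04 in U87, a change of -1.44 ± 0.25 (limma adjusted p = 0.000488). KIF1A, a neuronal kinesin-3, had 5.86 and 6.28 log2 in DBTRG and was detected in no untreated U87 array, so that it was at least 1.65-fold higher in DBTRG. KIF1A and KIF3C, like KIF16B and KIF5A, passed the detection filter only through the arrays of 1 line, so their values between the lines are a description, and the 11 other kinesins left without these 4 had 3 higher and 6 lower calls.

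KIF2A (0.76), KIF21A (0.58) and KIF3B (0.54) were the remaining kinesins outside the mitotic set called higher in DBTRG. KIF3B had -0.02 under the scaling below, and its second probe had 0.27 and was not called (limma adjusted p = 0.151 over probes). KIFC2 (-0.78), KIF24 (-0.70), KIF5B (-0.57), KIF5C (-0.54) and KIF13B (-0.51) were the others called lower. All are log2 differences. Among the mitotic kinesins, KIF14 was higher in untreated DBTRG by 1.15 ± 0.13, KIF4A by 0.86 ± 0.13 and KIF11 by 0.84 ± 0.12, and KIF18A (-0.69 ± 0.19) and KIF22 (-0.65 ± 0.12) were lower. Single arrays decided several of these calls. KIF13B was not called without the first untreated DBTRG array (limma adjusted p = 0.189) or either untreated U87 array, KIF3B without the first untreated DBTRG array (0.0923) or the second untreated U87 array (0.0980), and KIFC2 without the second untreated DBTRG array (0.0617) or the first untreated U87 array (0.0737). KIF21A was not called without the first untreated U87 array (0.0517), nor KIF5B (0.0695) and KIF18A (0.0730) without the second. Centring each array on the median of all probes moved the median of all genes to -0.48 in this comparison, against -0.07. Under it 1 mitotic kinesin was called higher and 6 lower, and 1 other kinesin higher and 9 lower. Of all 11423 genes 1495 were then called higher and 5711 lower. KIF20A was then at -0.54 and KIF20B at -0.49, against 0.04 and 0.07 under quantile normalization.

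Of the other 15 kinesins that did not pass the filter, 13 were detected in no array. They were KIF2B, KIF3A, KIF4B, KIF6, KIF9, KIF12, KIF13A, KIF17, KIF19, KIF21B, KIF25, KIF26A and KIF27. KIF26B and KIFC3 were detected in 1 array each, of U87 with both drugs. The KIF4B probe is of interest since KIF4B is a near-identical copy of KIF4A, and it gave no detected signal. KIF11 had a second detected probe, which changed by -1.76 in DBTRG and -0.74 in U87 with Y15, the same direction as the first. The dimmer second probe of KIF23 changed by -0.54 in DBTRG and showed 0.00 in U87.

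Most genes that work with the mitotic kinesins fell as well. Of 24 spindle and midzone partners 23 were measured, and 21 fell and none rose in DBTRG with Y15, with a median of -1.06 log2, beside 18.4% of all genes lower. ANLN, a scaffold of the cleavage furrow, changed by -2.02 ± 0.13, TPX2, which activates Aurora A on the spindle, by -1.52 ± 0.11, ASPM, a spindle pole protein, by -1.50 ± 0.11 and CENPE, a kinetochore kinesin whose symbol lies outside the rule, by -1.46 ± 0.13. In U87, 17 of the 23 fell with Y15 (median -0.52) and 17 with both drugs (median -0.57), beside 13.4% and 13.2% of all genes lower, while 0 were called with TMZ. Of 9 proliferation genes 8 were measured. In DBTRG 6 fell and none rose, MKI67 by -1.85 ± 0.24, CCNA2 by -1.72 ± 0.12, TOP2A by -1.45 ± 0.13 and FOXM1 by -1.45 ± 0.15, and in U87 4 fell with Y15 and 4 with both drugs, against the same shares of all genes. PCNA (0.20 ± 0.18) and LIN54 (0.15 ± 0.15) were not called in DBTRG. In U87 PCNA, LIN54, FOXM1 and E2F1 were not called with Y15 or with both drugs. The part of fewer dividing cells in the kinesin changes was not tested.

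The counts for cargo adaptors and the opposing motor dynein lay closer to those of all genes, of which 19.4% were called higher and 18.4% lower in DBTRG with Y15, 8.61% and 13.4% in U87 with Y15, and 9.95% and 13.2% with both drugs. Of 25 kinesin light chains and cargo adaptors 18 were measured, and 4 rose and 5 fell in DBTRG with Y15, 1 rose and 3 fell in U87 with Y15, and 2 rose and 4 fell with both drugs. ZFYVE27 (protrudin, which loads endosomes onto kinesin-1) changed by 1.41 ± 0.16 in DBTRG, MAPK8IP3, a kinesin-1 adaptor, by 0.69 ± 0.14, PLEKHM2, which links lysosomes to kinesin-1, by 0.66 ± 0.14 and MAPK8IP1, another kinesin-1 adaptor, by -0.75 ± 0.18. Of 28 dynein and dynactin genes 23 were measured, and 1 rose and 4 fell in DBTRG with Y15, among them DYNC1I2, an intermediate chain, by -0.51 ± 0.10. In U87 0 rose and 2 fell with Y15, and 0 rose and 3 fell with both drugs.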

How the data were processed

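RNA was measured in 12 single-colour Illumina bead arrays, 2 in each of 6 groups taken from the sample titles. Per the file headers, the deposited intensity table gives 1 linear signal per probe and array with a detection p-value for each, and the submitters' processing notes name GenomeStudio. A second deposited table, in log2 units, was used as an alternative, and how it was normalized is not stated in any source used here. Per the labels' protocols, RNA was extracted from frozen tissue, although every sample is labelled as a cell line. No slide or scan batch was given.

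Normexp background correction used the detection p-values (limma 3.58.1, R 4.3.3) with an offset of 16, followed by quantile normalization and log2, a scale that understates changes of dim probes. Probes with a detection p-value under 0.01 in at least 2 arrays were kept (19354), and the brightest probe stood for each gene. The platform annotation gave 1 symbol to each of 30113 probes; the Entrez numbers of 30074 of them matched RefSeq and changed 0 symbols. All 6 group means were fitted to the 12 arrays with lmFit and eBayes (6 residual degrees of freedom), two-sided, and p-values were adjusted by Benjamini-Hochberg over 11423 genes with a threshold of 0.05. Where a probe was detected in no array of 1 group, a fold is a bound taken against the lowest detected signal. The fit was tested on simulated data. The number of arrays limits the precision.

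Members, lists and the rule for named genes (all mitotic kinesins by array, up to 6 called others per Y15 comparison, up to 4 genes per partner list by smallest p in DBTRG) were chosen with earlier results of these data known. No replicate block was used, since the labels do not say that replicate numbers mark a shared batch. Same-numbered replicates did not deviate together (correlations between -0.05 and 0.11). The contrast of Y15 with and without TMZ, the count without undetected kinesins and the centring on all probes were added after the data were seen. Promoter windows are RefSeq's on GRCh38.p14, the first listed per gene; protein sequences were not used here.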

Additional observations from a re-analysis of the deposited data

Results flagged for a closer look

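The changes with Y15 differed between DBTRG and U87, by the contrast itself, for 7 mitotic kinesins, each further below its untreated arrays in DBTRG. As DBTRG change minus U87 change on the log2 scale, the values were -0.91 for KIF23, -0.90 for KIFC1, -0.88 for KIF4A, -0.75 for KIF14, -0.71 for KIF15, -0.67 for KIF2C and -0.66 for KIF20A, under quantile normalization. The limma adjusted p was 0.00492 for KIF23, 0.00879 for KIF4A, 0.0147 for KIF14, 0.026 for KIF20A, 0.0271 for KIFC1, 0.0411 for KIF15 and 0.0457 for KIF2C. With each array centred on the median of all its probes KIF14, KIF15, KIF20A and KIF2C had values above 0, and the other 3 were not called. Under quantile normalization the dimmer second probe of KIF23 had -0.54 in this contrast (limma adjusted p = 0.174 over probes). The 2 U87 arrays with Y15 detected the fewest probes of that line, 14437 and 15169, against 16431 and 15981 in untreated U87, while DBTRG arrays with Y15 detected 15309 and 15934, against 15001 and 15499 untreated. The part of that count in the line difference was not tested.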

How the results depend on the processing

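Of 286 recomputed counts of called kinesins, 260 stayed within 1.5 times the main count; the others are given here. The contrast between the lines gave 7 called mitotic kinesins, against 4 with each array centred on the median of its kept probes, 4 with only the arrays compared, 2 (both higher) with centring on all probes, and 2 to 6 without 1 replicate. For the other kinesins it gave 0, against 2 with centring on kept probes, 6 with centring on all probes, 1 each with the authors' deposited log2 table, an offset of 50 and detection in all 12 arrays, and 0 to 1 without 1 replicate. The other kinesins called in DBTRG with Y15 numbered 6, against 2 with only the arrays compared, array weights or centring on all probes, and 2 to 5 without 1 replicate. In U87 with Y15 they numbered 3, against 12 with centring on all probes. For both drugs against Y15 alone, centring on all probes called 3 mitotic and 7 other kinesins, against 0 and 0, and for both drugs against TMZ the other kinesins numbered 3, against 1 to 2 without 1 replicate.

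Centring on all probes turned the sign of 57 of 234 values of single kinesins, of which 46 were called in neither setting. The 11 called in one of them were KIF1C in U87 with Y15 (-0.47), KIF20B with both drugs against Y15 (0.48), KIF20A (-0.54), KIF20B (-0.49) and KIF3B (-0.021) between the untreated lines, and KIF14 (0.12), KIF15 (0.15), KIF20A (0.17), KIF20B (0.68), KIF2C (0.19) and KIF5C (0.71) in the contrast between the lines. It moved the median of all genes to 0.11 in DBTRG with Y15, -0.60 in U87 with Y15, -0.18 with both drugs and 0.70 in the contrast between the lines. The split of all genes was then 2164 higher and 1052 lower in DBTRG with Y15 (2213 and 2100 in the main fit), 412 and 6989 in U87 with Y15 (984 and 1532), 686 and 1942 with both drugs (1137 and 1506), 722 and 2192 for both drugs against TMZ (1241 and 1654), 1495 and 5711 between the untreated lines (3060 and 3711) and 5879 and 303 in the contrast (1417 and 869). For both drugs against Y15 alone that split was 3640 and 75 (10 and 25). The cause was not tested. With the replicate block 10 mitotic kinesins were called in DBTRG with Y15, KIF22 losing its call, 9 in U87 with Y15, KIFC1 gaining one, and 6 in the contrast, KIF15 losing its call; no other count of kinesins moved except 6 mitotic calls, against 5, between the untreated lines.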
